A study of Mus musculus with 6 samples.

Results

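Spermatogonia that leave the stem and progenitor pool switch on the receptor KIT, divide several more times and then enter meiosis. The 10 genes described here mark or drive that passage: Kit, Stra8, Sohlh1, Sohlh2, Dmrtb1, Rhox13, Ccnd2, Prss50, Uchl1 and Meioc. They were chosen by name, as table rows whose only platform gene symbol is one of the 10, and all 10 were found, each as 1 transcript cluster (a set of probes that together read 1 transcribed region), out of 21789 named clusters for 19938 genes. They were measured in whole testes of mouse pups at postnatal day 15 on 6 Affymetrix mouse gene arrays, 3 from control and 3 from knockout mice. The sources used here give neither the strain, the exact genotype of the controls, the cell type in which the gene was deleted, nor whether the replicates were separate animals or pools. Every p-value is therefore set against the scatter of these arrays alone, part or all of which could be technical.

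Retinoic acid, made in and around the seminiferous tubule, triggers spermatogonial differentiation and later meiotic entry, and Stra8 is its best known germ cell target. The transcription factors SOHLH1 and SOHLH2 act as partners to promote differentiation and Kit expression, and DMRTB1 (also called DMRT6) helps end the spermatogonial programme so that meiosis can begin. At the end of the passage, MEIOC works with the RNA helicase YTHDC2 to let meiotic prophase proceed.

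The 250 bases before the RefSeq start sites (GRCm38.p6) of Stra8, and of the transcription factor genes Sohlh1, Sohlh2 and Dmrtb1, are shown because the retinoic acid and SOHLH routes are read through such regions. Capitals mark the retinoic acid receptor core site AGGTCA and the E-box CANNTG, the motif class of basic helix-loop-helix factors such as the SOHLH proteins, each on either strand. The Stra8 stretch lies at chr6:34920698-34920947 (plus strand), that of Sohlh1 at chr2:25847249-25847498 (minus strand), that of Sohlh2 at chr3:55181794-55182043 (plus strand), and that of Dmrtb1, upstream of the more distal of its listed starts in this table, at chr4:107684231-107684480 (minus strand).
Stra8: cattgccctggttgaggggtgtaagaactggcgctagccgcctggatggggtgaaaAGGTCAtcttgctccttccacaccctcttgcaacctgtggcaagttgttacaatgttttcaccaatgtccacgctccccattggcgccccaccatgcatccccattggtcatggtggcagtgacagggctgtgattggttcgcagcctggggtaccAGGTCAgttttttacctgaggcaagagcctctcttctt
Sohlh1: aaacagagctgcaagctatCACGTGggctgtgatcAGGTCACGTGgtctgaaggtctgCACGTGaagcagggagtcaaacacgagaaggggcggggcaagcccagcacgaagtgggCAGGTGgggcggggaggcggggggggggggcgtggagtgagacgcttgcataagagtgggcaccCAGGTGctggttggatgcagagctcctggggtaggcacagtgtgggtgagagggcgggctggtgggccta
Sohlh2: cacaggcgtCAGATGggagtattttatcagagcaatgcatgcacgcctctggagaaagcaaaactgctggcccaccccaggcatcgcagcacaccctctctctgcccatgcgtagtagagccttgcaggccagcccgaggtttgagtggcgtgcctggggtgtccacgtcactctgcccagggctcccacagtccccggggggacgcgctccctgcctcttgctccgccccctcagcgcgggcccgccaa
Dmrtb1: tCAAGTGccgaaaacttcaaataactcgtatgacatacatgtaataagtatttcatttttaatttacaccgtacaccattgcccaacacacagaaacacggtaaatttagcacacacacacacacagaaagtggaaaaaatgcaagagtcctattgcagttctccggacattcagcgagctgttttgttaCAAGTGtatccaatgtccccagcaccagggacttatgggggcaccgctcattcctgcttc
Counted back from the start, Stra8 held 2 receptor core sites, at positions -194 and -38, and no E-box. Sohlh1 held 5 E-boxes and 1 receptor core site, and that site (at -215) overlaps the E-box at -211. Sohlh2 held 1 E-box (at -241) and the stretch of Dmrtb1 shown held 2 (at -249 and -60). Of 9 genes with a stretch in the table (Ccnd2 had none), 4 held an E-box in the first one listed (these 3 factors and Rhox13), against 66.2% of all 32851 stretches. For Dmrtb1 the first one listed is not the stretch shown, and it held 3 E-boxes. The receptor core site occurred in 2 of 9 (Stra8 and Sohlh1), against 14.02% of all stretches. The SP1 box GGGCGG occurred in 5 of 9 (32.7% of all), the MYB core AACNG in 6 of 9 (74.2% of all) and the CRE TGACGTCA in 0 of 9 (1.55% of all). For Dmrtb1 the SP1 box lay in the first stretch listed (at -190) and not in the one shown. These are matches of letters and not measured binding.

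The 10 genes did not move as a block. Dmrtb1, Sohlh2 and Sohlh1, 3 of the transcription factor genes, were lower in every knockout array than in any control array. The homeobox gene Rhox13 had a higher mean in the knockout (by 0.10), with overlapping groups. The protease gene Prss50 was higher in every knockout array, and Kit, Stra8 and Meioc differed by less than the spread among replicates. Values are log2 intensities as the authors normalised them (RMA), so a difference of 1 would be a doubling, and every difference is knockout minus control. No gene passed an adjusted p of 0.05: the test across all 21789 clusters (limma, Benjamini-Hochberg) called 0 of the 10 and 0.0138% of all clusters, and the lowest adjusted p among the 10 was 0.288. At an unadjusted p under 0.05, 3 of the 10 were lower, against 6.45% of all clusters, and 1 was higher, against 4.1%. Groups without overlap were found in 3 genes on the lower side (8.6% of all clusters) and in 2 on the higher side (6.73%). The median difference of the 10 was -0.04, with 7 below and 3 above the control mean, and the median of all clusters was 0.0033. The median of the 10 was -0.098 without control replicate 2 and -0.095 without knockout replicate 3. With 3 arrays against 3, an exact permutation test of a single gene cannot go below p = 0.1.

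**Figure D1:**
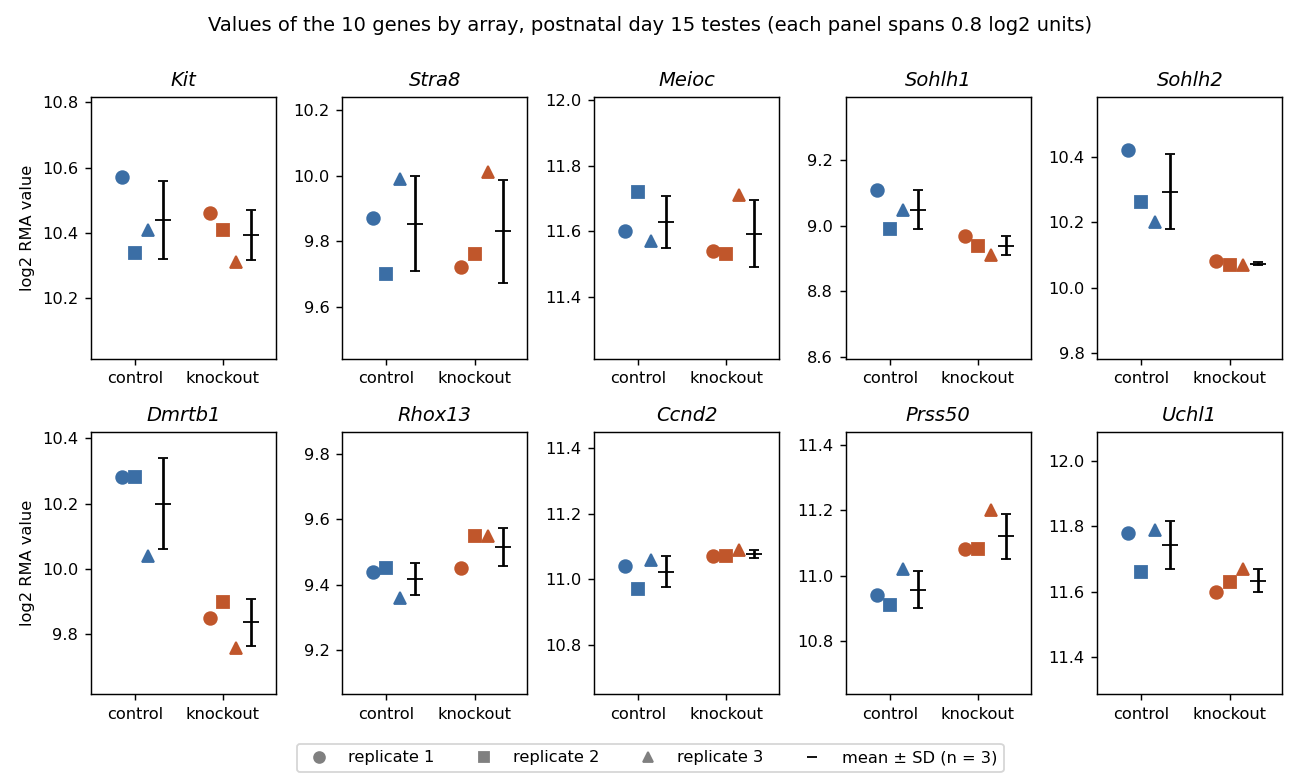
Log2 RMA value of each of the 10 genes (vertical axes, each spanning the same number of log2 units) in the 3 control (blue) and 3 knockout (orange) arrays, with the mean and SD of each group in black. The knockout values of Dmrtb1, Sohlh2 and Sohlh1 lie below all control values, those of Prss50 and Ccnd2 above them, and the groups of the other 5 genes overlap.

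Among the transcription factors, Dmrtb1 had the largest difference of the 10. Its values were 10.28, 10.28 and 10.04 in control replicates 1 to 3 and 9.85, 9.90 and 9.76 in knockout replicates 1 to 3. The highest knockout array lay 0.14 below the lowest control array, control replicate 3, which stood apart from the other two controls. The means were 10.20 ± 0.14 and 9.84 ± 0.071 (SD, n = 3), a difference of -0.36 (SE 0.076) or a fold of 0.777 (95% interval 0.687 to 0.880, limma adjusted p = 0.288). By p-value the cluster (10514919, chromosome 4) ranked 140 of 21789, and 1.19% of all clusters had a lower difference. Leaving out any 1 array kept the difference between -0.44 and -0.32, and over the 15 settings of the analysis its adjusted p lay between 0.116 and 0.646.

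Sohlh2 was the next lowest and the most even among knockout arrays. Its control values were 10.42, 10.26 and 10.20, and its knockout values 10.08, 10.07 and 10.07. The knockout arrays spanned 0.01 and the control arrays 0.22, with 0.12 between the groups. The means of 10.29 ± 0.11 and 10.07 ± 0.0058 (SD, n = 3) gave a difference of -0.22 (SE 0.061), a fold of 0.859 (95% interval 0.777 to 0.949, limma adjusted p = 0.347) for cluster 10492123 on chromosome 3. Most of the control spread came from control replicate 1, without which the difference was -0.16.

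Sohlh1, the partner of Sohlh2, had a difference smaller than the 0.12 its control arrays spanned. Control arrays read 9.11, 8.99 and 9.05, and knockout arrays 8.97, 8.94 and 8.91. The groups were separate by 0.02. The difference was -0.11 (SE 0.047, 95% interval -0.22 to -0.00016, fold 0.927, limma adjusted p = 0.472) for cluster 10480869 on chromosome 2. This gene's place among those with an unadjusted p under 0.05 was lost with any of 5 single arrays left out and kept without control replicate 2.

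Rhox13, an X-linked homeobox gene whose protein appears in differentiating spermatogonia and early spermatocytes, went the other way. Its values were 9.44, 9.45 and 9.36 in control and 9.45, 9.55 and 9.55 in knockout arrays. Knockout replicate 1 equalled the highest control array, so the groups touched. The difference was 0.10 (SE 0.049, fold 1.07, 95% interval 0.989 to 1.16, limma adjusted p = 0.526). Without knockout replicate 1 it was 0.13, and the gene then joined those with an unadjusted p under 0.05.

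The receptor gene Kit, the defining marker of differentiating spermatogonia, read 10.57, 10.34 and 10.41 in control and 10.46, 10.41 and 10.31 in knockout arrays. The highest value belonged to control replicate 1 and the lowest to knockout replicate 3, and the groups overlapped. The means were 10.44 ± 0.12 and 10.39 ± 0.076 (SD, n = 3), a difference of -0.05 (SE 0.071, limma adjusted p = 0.862). The 95% interval of the fold ran from 0.863 to 1.09. Its direction rested on control replicate 1, without which the difference was 0.018.

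Stra8, the retinoic acid target that couples to meiotic entry, had the widest spread of the 10. It read 9.87, 9.70 and 9.99 in control and 9.72, 9.76 and 10.01 in knockout arrays. Each group spanned 0.29, and both replicates numbered 3 were the highest of their group. The difference was -0.02 (SE 0.099, limma adjusted p = 0.958), with a fold interval of 0.837 to 1.16. It took either sign when 1 array was left out, from -0.11 without knockout replicate 3 to 0.045 without control replicate 3, and was 0.032 and 0.012 without knockout replicates 1 and 2.

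Meioc, needed for meiotic prophase to go on, read 11.60, 11.72 and 11.57 in control and 11.54, 11.53 and 11.71 in knockout arrays. Knockout replicates 1 and 2 lay below all controls, but knockout replicate 3 lay just under the highest of them. The difference was -0.04 (SE 0.066, limma adjusted p = 0.888), with a fold interval of 0.875 to 1.09. It was 0.0083 without control replicate 2 and -0.095 without knockout replicate 3. Of its partners, chosen after their values were seen, Ythdc2 differed by 0.0033 (SE 0.040), and Rbm46, an RNA-binding protein that acts with them, by -0.12 (SE 0.038, limma adjusted p = 0.371). Rbm46 read 11.71, 11.74 and 11.72 in control and 11.59, 11.60 and 11.61 in knockout arrays, so its groups were separate.

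Ccnd2 encodes cyclin D2, which appears as spermatogonia begin to differentiate. Its control values were 11.04, 10.97 and 11.06, and its knockout values 11.07, 11.07 and 11.09. The groups were separate, by 0.01, the last digit deposited. The difference of 0.05 (SE 0.042, limma adjusted p = 0.707) had a fold interval of 0.969 to 1.11.

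Prss50, a testis serine protease-like gene also called Tsp50, was the highest of the 10 in the knockout relative to control. It read 10.94, 10.91 and 11.02 in control and 11.08, 11.08 and 11.20 in knockout arrays. All 3 knockout arrays lay above the controls, by at least 0.06, with knockout replicate 3 apart from the others. The means were 10.96 ± 0.057 and 11.12 ± 0.069 (SD, n = 3), a difference of 0.16 (SE 0.053) or 1.12-fold (95% interval 1.03 to 1.22, limma adjusted p = 0.381) for cluster 10589647 on chromosome 9. The difference was 0.12 without knockout replicate 3 and 0.14 without control replicate 2. In both of these cases the number of the 10 genes that were higher at an unadjusted p under 0.05 was 0 in place of 1, while it was 2 (with Rhox13) without knockout replicate 1.

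Uchl1 encodes a deubiquitinating enzyme abundant in spermatogonia and neurons. It read 11.78, 11.66 and 11.79 in control and 11.60, 11.63 and 11.67 in knockout arrays. The groups overlapped through control replicate 2, which lay just under knockout replicate 3. The difference was -0.11 (SE 0.050, fold 0.927, 95% interval 0.853 to 1.01, limma adjusted p = 0.497). Without control replicate 2 it was -0.15, and Uchl1 then stood among 4 genes that were lower at an unadjusted p under 0.05.

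**Figure D2:**
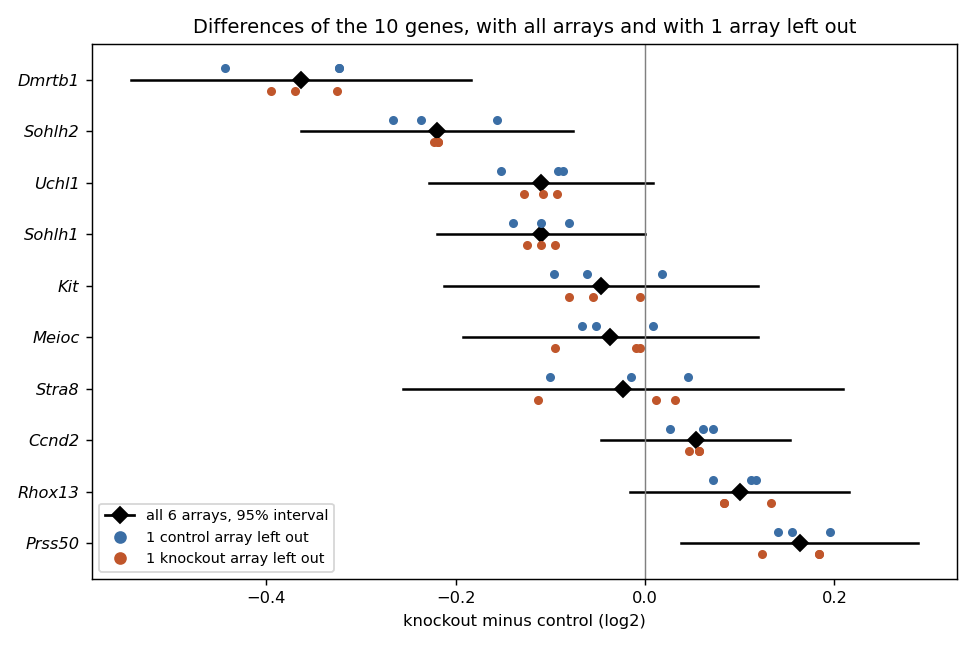
Knockout minus control on the log2 scale for each of the 10 genes with all arrays (black diamond, bar the 95% interval of the limma fit) and with 1 control (blue) or 1 knockout (orange) array left out. The differences of Dmrtb1, Sohlh2, Sohlh1 and Uchl1 stay below 0 and those of Prss50, Rhox13 and Ccnd2 above 0 in every case. Those of Kit, Meioc and Stra8 fall on both sides of 0.

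Arrays differed in which of the 10 genes were low. Relative to the control mean, the median of the 10 was -0.085 in knockout replicate 1, -0.097 in knockout replicate 2 and -0.0033 in knockout replicate 3. The third knockout array held the lowest deviation of all (-0.44, Dmrtb1) and the highest (0.24, Prss50). Among controls the medians were 0.030, -0.050 and -0.015. Knockout replicate 3 thus lay within the range of the controls in this median.

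A further list, drawn up as other genes of differentiating spermatogonia, was also mostly below the control mean. It also holds genes made in progenitors, such as Neurog3, Nanos3, Lin28a and Sall4, so it is not particular to the differentiating stage. Of 18 measured of 19 listed, 15 lay below and 3 above, with a median of -0.09, and 0 passed an adjusted p of 0.05 in limma. At an unadjusted p under 0.05, 5 were lower (6.45% of all clusters) and 0 higher (4.1%). The lower count was 3 without control replicate 1, and the higher count 1 without control replicate 3 or knockout replicate 3. The list was drawn up with earlier results of these data known, so its direction is no independent evidence. Sall4, a zinc-finger factor of spermatogonia, read 10.04, 9.83 and 9.99 in control and 9.68, 9.67 and 9.60 in knockout arrays, a difference of -0.30 (SE 0.063, limma adjusted p = 0.288). Tuba3a, a testis alpha-tubulin with a near-identical copy whose reads these probes may share, differed by -0.22 (SE 0.048). On the other side stood Neurog3, a factor of progenitors on their way to differentiation, at 0.13 (SE 0.065), and the germ cell RNA-binding protein gene Dazl at 0.0067 (SE 0.042).

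Genes of the undifferentiated cells that precede the KIT-positive stage went both ways. Of 20 measured of 21 listed, 9 lay below and 11 above the control mean (median 0.035), with 0 past the adjusted threshold in limma. At an unadjusted p under 0.05, 3 were lower (6.45% of all clusters) and 5 higher (4.1%). The lower count was 0 without control replicate 3 and 1 without knockout replicate 2 or 3, and the higher count was 3 without knockout replicate 2. Gfra1, the GDNF receptor of stem spermatogonia, read 8.91, 8.97 and 9.13 in control and 9.38, 9.40 and 9.41 in knockout arrays (0.39, SE 0.062, limma adjusted p = 0.242), and Etv5, a transcription factor downstream of GDNF, differed by 0.25 (SE 0.055). Zbtb16 (PLZF), a repressor of differentiation, differed by -0.18 (SE 0.062) and Egr4 by -0.13 (SE 0.052). Groups without overlap were found in 4 genes of this list on the lower side (8.6% of all clusters), Zbtb16 and Egr4 among them. On the higher side there were 4 (6.73% of all clusters), Gfra1 and Etv5 among them. Whether the directions differ between this list and the one before was not tested, and the one before also holds genes of progenitors.

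The signals that reach KIT-positive cells were described through their receptors, ligands and enzymes. Kitl, the KIT ligand, which Sertoli cells present, read 10.51, 10.44 and 10.49 in control and 10.79, 10.76 and 10.74 in knockout arrays, a difference of 0.28 (SE 0.041, limma adjusted p = 0.235). All 3 knockout arrays were above the controls for the ligand, while the values of the receptor gene Kit overlapped. Of 17 measured KIT signalling genes of 22 listed, 5 lay below and 12 above the control mean (median 0.013), and 0 passed the adjusted threshold. Kitl was the 1 higher at an unadjusted p under 0.05 (4.1% of all clusters) and Mtor (-0.10, SE 0.040) the 1 lower (6.45%). This lower count was 0 when control replicate 1 or a single knockout array was left out. Pik3cb, a catalytic subunit of the kinase that KIT activates, differed by -0.09 (SE 0.043), and the phosphatase gene Ptpn6 by 0.07 (SE 0.042).

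By the sign of their mean difference, genes of retinoic acid synthesis, breakdown and reception were split evenly. Of 20 measured of 21 listed, 10 lay below and 10 above the control mean (median -0.012), and 0 passed the adjusted threshold in limma. Rarg, the receptor through which spermatogonia respond to retinoic acid, read 8.74, 8.72 and 8.67 in control and 8.62, 8.60 and 8.42 in knockout arrays (-0.16, SE 0.062, limma adjusted p = 0.422). The receptor gene Rarb differed by -0.12 (SE 0.041), the retinaldehyde reductase gene Dhrs3 by 0.11 (SE 0.066) and Cyp26b1, which degrades retinoic acid, by 0.08 (SE 0.045). Groups without overlap were found in 4 of these genes on the lower side (8.6% of all clusters) and in 0 on the higher side (6.73%). At an unadjusted p under 0.05, 3 were lower (6.45% of all clusters) and 0 higher (4.1%). Without control replicate 2 only 1 was lower, and without knockout replicate 3, 1 was lower and 1 higher.

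Early meiosis genes, which STRA8-positive cells go on to express, lay below the control mean in 17 of 23 measured (24 listed), with a median of -0.05. None passed the adjusted threshold in limma. At an unadjusted p under 0.05, 6 were lower (6.45% of all clusters) and 0 higher (4.1%), with 1 higher without control replicate 3. Spo11, which makes the breaks that start recombination, read 9.16, 9.17 and 9.23 in control and 8.74, 8.80 and 8.96 in knockout arrays (-0.35, SE 0.063, limma adjusted p = 0.256). Mei1, needed for those breaks, differed by -0.23 (SE 0.049), while Msh5, a crossover factor, differed by 0.24 (SE 0.13) and Mei4 by 0.09 (SE 0.049). The list's median deviation was -0.15 and -0.12 in knockout replicates 1 and 2 and 0.06 in knockout replicate 3, the array in which Stra8 and Meioc were highest among knockouts.

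**Figure D3:**
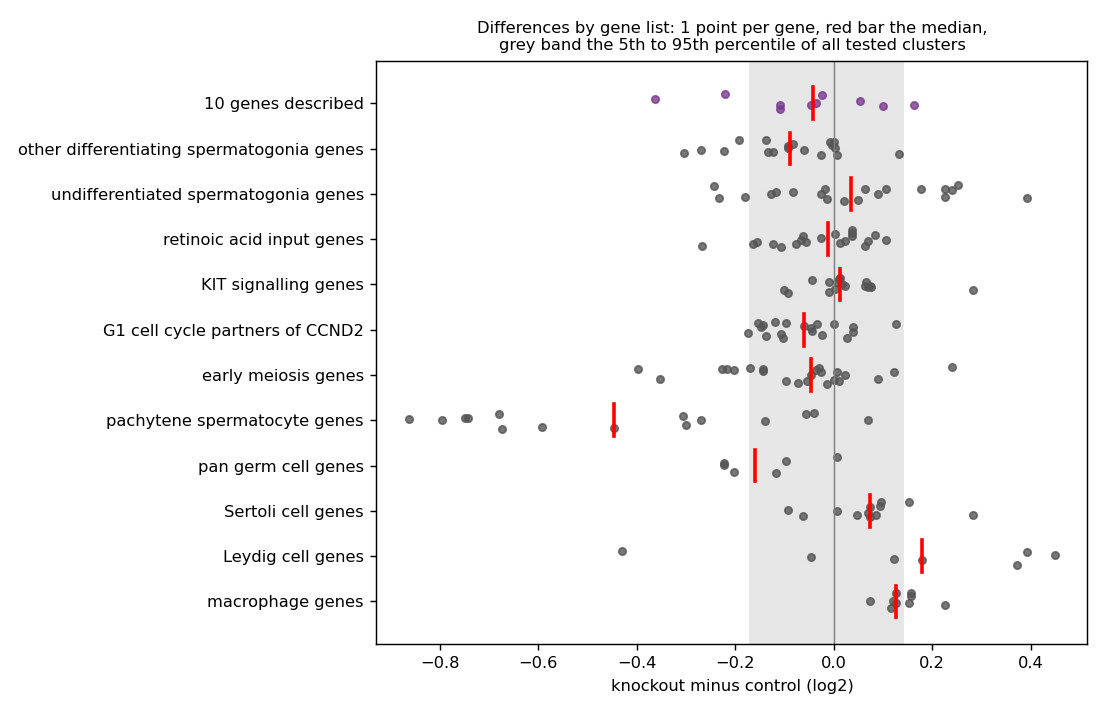
Knockout minus control on the log2 scale for every measured gene of the lists described (1 point per gene, vertical scatter only to separate points, red bar the list's median), with the range of -0.17 to 0.14 that holds the middle of all tested clusters in grey (5th to 95th percentile). Of the 10 genes, Dmrtb1 and Sohlh2 lie left of the grey band and Prss50 right of it, and the pachytene genes reach farther left than any other list drawn.

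In whole testis, fewer cells of a type and less RNA per cell cannot be told apart, so marker lists are given beside these values. Of 6 pan germ cell genes, 5 lay below the control mean (median -0.16), and their mean level was 10.97 to 11.00 in control and 10.81 to 10.89 in knockout arrays, without overlap. Of these, 4 were lower at an unadjusted p under 0.05 (6.45% of all clusters), and 2 without knockout replicate 2. The 4 were the helicase gene Ddx4 (-0.20), the piRNA factor Mael (-0.22), the bridge protein gene Tex14 (-0.12) and Dnd1 (-0.22). Rnf17 differed by -0.10 and Dazl by 0.0067. Pachytene spermatocyte genes lay below in 14 of 15 (median -0.45). In limma 0 of these passed the adjusted threshold. At an unadjusted p under 0.05, 10 were lower (6.45% of all clusters) and 0 higher (4.1%). The lower count was 2 without control replicate 2, 4 without control replicate 3, 6 without knockout replicate 1 or 2, 6 with the trend and robust prior and 1 without moderation. These genes had a mean level of 9.05 to 9.65 in control and 8.85 to 9.13 in knockout arrays. Control replicate 1 was the lowest control in those pachytene genes, below knockout replicate 3, and yet the highest or joint highest array for Kit, Sohlh1, Sohlh2 and Dmrtb1.

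Medians of the somatic marker lists were near or above 0, while 48.59% of all clusters lay below the control mean. Of 12 measured Sertoli cell genes, 10 had a higher mean in the knockout (median 0.07). Their mean levels overlapped, at 11.142 to 11.194 in control and 11.192 to 11.275 in knockout arrays. Of macrophage genes, 9 of 9 had a higher mean (median 0.13, mean level 8.98 to 9.15 in control and 9.15 to 9.21 in knockout arrays). At an unadjusted limma p under 0.05, 1 Sertoli and 3 macrophage genes were higher (4.1% of all clusters), and 0 of either list were lower (6.45%). The 1 Sertoli gene was Kitl, the same cluster counted above among the KIT signalling genes. Leydig cells also make KIT: their list, which holds Kit itself, lay above in 5 of 7 (median 0.18, 9.67 to 9.95 and 9.89 to 10.01), among them Nr5a1 (0.18, SE 0.038) and Cyp11a1 (0.37, SE 0.11), with Hsd17b3, the last enzyme of testosterone synthesis, at -0.43 (SE 0.091). Mast cell genes, another source of KIT, had mean levels of 6.10 to 6.29 in control and 6.19 to 6.39 in knockout arrays. Peritubular myoid and endothelial genes had medians of -0.017 and -0.017. No marker can be at 0 on this scale, where the lowest value of the table is 2.19. The part of these cell types in the differences of the 10 genes was not tested.

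**Figure D4:**
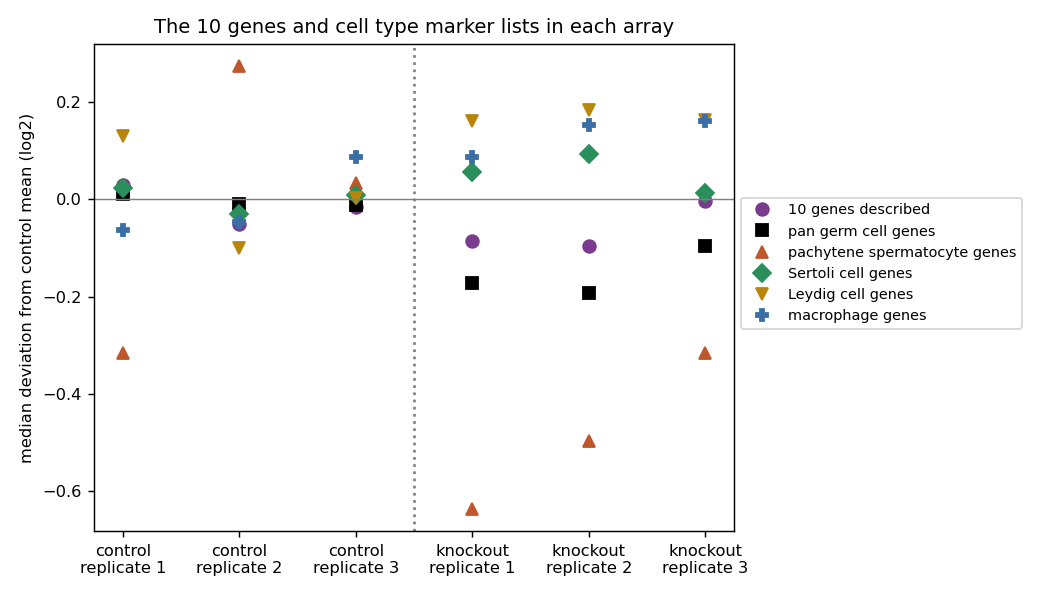
Median deviation from the control mean (log2, vertical axis) of the 10 genes and of 5 marker lists in each of the 6 arrays. The pan germ cell genes sit between -0.19 and -0.097 in the knockout arrays and near 0 in all controls, while the pachytene genes range from -0.32 to 0.27 among the controls.

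Patterns across the 6 arrays were compared with those of 14786 other genes whose mean was at least 7, by Pearson's r over arrays that share 2 groups. Dmrtb1 was most like Csnk1e, a casein kinase (r = 0.996), Nanos1, an RNA-binding repressor of translation (0.993), and Espl1, which encodes separase (0.993). These 3 genes were lower in every knockout array, by differences of -0.24, -0.32 and -0.21 (limma adjusted p = 0.302, 0.288 and 0.342). That direction follows from choosing them by likeness to Dmrtb1 over the same arrays, so it is no independent evidence. Kit was most like Ephb1 (0.985), Marf1 (0.983) and Tpm3 (0.981), and Stra8 most like Ccdc90b (0.995), Magi3 (0.989) and Usp15 (0.987), all with overlapping groups. With so many genes and 6 arrays, correlations of this height are a description only.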

How the data were processed

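Total RNA of testes was labelled with biotin and hybridised to 6 arrays, per the labels' protocols. The deposited table holds 1 log2 value per transcript cluster and array, made by the authors with RMA in Affymetrix Expression Console, per the submitters' processing notes. The software versions, probe annotation and build were not given in the sources used here. RMA gives all arrays 1 distribution and compresses differences of dim clusters.

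Of 35556 rows, the 21789 with 1 gene symbol in the platform annotation were tested, with symbols updated through gene identifiers (21698 matched GRCm38.p6). Values were fitted in R 4.3.3 with limma 3.58.1 (lmFit, eBayes, 4 residual and 3.24 prior degrees of freedom, no covariates), with Benjamini-Hochberg adjustment over all 21789. The procedure was tested on simulated data. Array medians were 8.075 to 8.1 and the lowest correlation between arrays was 0.9947. The number of arrays limits the precision.

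The 10 genes and all lists were chosen with earlier results of these data known. Named genes are the 10, the 3 most like each of Kit, Stra8 and Dmrtb1, and genes picked by p from other lists. From such a list came the 2 with the smallest p on each side, or all of a list of 6 or fewer. The pachytene, Sertoli, macrophage, mast cell, peritubular myoid and endothelial lists were only summarised, without naming their genes by this rule. Ythdc2 and Rbm46 are named outside this rule. A gene with several clusters is represented in the lists by the one with the highest mean. List members without a measured cluster, and the targeted gene, are not reported here. Promoter stretches are RefSeq's (GRCm38.p6).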

Additional observations from a re-analysis of the deposited data

How the results depend on the processing

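The alternatives were a replicate block, an intensity trend with a robust prior, dim clusters (mean under 6) left out, all rows tested, arrays centred on their medians, no moderation of the spread, clusters of a gene averaged, array weights, and each array left out. The number of the 10 genes past an adjusted p of 0.05 was 0 in all of these. The number of all clusters past it, 3 in the main analysis, was 0 with the replicate block, 0 with all rows tested, 1 without moderation, 7 with the trend and robust prior, and 0 to 52 with 1 array left out (52 without control replicate 1). The labels do not say that replicate numbers pair samples, so the numbers were not taken to pair them. The deviations of same-numbered arrays correlated at 0.17, -0.054 and 0.17. They were not compared with those of differently numbered arrays, so they cannot settle whether samples were paired. Under the block the median of the 10 stayed at -0.04, and the SE of Stra8 was 0.059 in place of 0.099. At an unadjusted p under 0.05, 2 of the 10 were then lower in place of 3. Likewise, 2 early meiosis genes were higher in place of 0, and 4 partners of cyclin D2 were lower in place of 1. With 1 array left out, the median of the 10 lay between -0.098 and -0.03, and the number higher at an unadjusted p under 0.05 between 0 and 2. Kit (-0.097 to 0.018), Meioc (-0.095 to 0.0083) and Stra8 (-0.11 to 0.045) changed sign among these analyses; the cause was not tested. The other 7 genes kept their sign in every setting. For the other lists, 358 counts at an unadjusted p under 0.05 stayed within 1.5 times the main count, 26 were higher and 36 lower than that. The 358 include main counts of 0 that stayed at 0, so they say less about the counts above 0. No detection calls were used, so signal over background is not known.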

Other observations

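Cyclin D2 acts with kinases and inhibitors of the G1 phase. Of 19 measured partners of 20 listed, 15 lay below and 4 above the control mean (median -0.06), and none passed an adjusted p of 0.05 in limma. At an unadjusted p under 0.05, 1 was lower (6.45% of all clusters) and 0 higher (4.1%). The lower count was 2 without control replicate 2, 3 without control replicate 3 and 0 without knockout replicate 3. Cdkn2a, which encodes an inhibitor of the cyclin D kinases, read 8.09, 8.04 and 8.17 in control and 8.01, 7.94 and 7.94 in knockout arrays (-0.14, SE 0.050, limma adjusted p = 0.412). The knockout arrays lay below all controls for Cdkn2a, while Cdkn2c, another inhibitor of the same kinases, differed by -0.17 (SE 0.077) with overlapping groups. On the higher side, the pocket protein genes Rbl2 and Rb1 differed by 0.13 (SE 0.064) and 0.04 (SE 0.048).

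Relatives of the 10 genes were measured in 30 of 34 listed cases, with 15 below and 15 above the control mean (median -0.012). At an unadjusted p under 0.05, 5 were lower (6.45% of all clusters) and 1 higher (4.1%), with 4 higher without control replicate 3. None passed the adjusted threshold in limma. Tcfl5, a helix-loop-helix factor of spermatocytes, read 10.41, 10.63 and 10.46 in control and 10.05, 10.23 and 10.21 in knockout arrays (-0.34, SE 0.075, limma adjusted p = 0.294). Lhx8, a LIM homeobox gene of oocytes and spermatogonia, differed by -0.27 (SE 0.073), and all 3 of its knockout arrays lay below the controls. Dmrt2, in the same family as Dmrtb1, had means of 7.33 ± 0.04 in control and 7.51 ± 0.036 in knockout arrays (SD, n = 3), a difference of 0.18 (SE 0.043, limma adjusted p = 0.318) in the opposite direction to Dmrtb1. The receptor kinase gene Csf1r, related to Kit and made by macrophages, differed by 0.12 (SE 0.050).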
